A study of Mus musculus with 6 samples.

Results

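The semaphorins, their plexin and neuropilin receptors, the netrins with their Unc5 receptors, and the Slits with their Robo receptors were examined in 3T3-L1 cells, mouse fibroblasts of an established line that become fat cells when induced in culture. The genes were chosen by symbol: a probe set belongs when the array annotation gives it 1 gene whose symbol is that of a Sema, Plxn, Ntn, Ntng, Unc5, Robo or Slit family member, or Nrp1 or Nrp2. This gave 109 probe sets of 48 genes, out of 18193 genes on 34945 probe sets that name 1 gene and 45101 probe sets in all. The Slitrk genes, Unc50, Unc5cl and Plxna4os1 begin with the same letters but are not members of these families and were left out. No signal entered this choice, but the family was put forward with results of the same comparison known, among them the fall of Sema3g, the 13th lowest change of 12630 genes. The value of Sema3g is therefore given as a description, with no p-value, and the counts of changed members are no independent evidence.

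The 6 one-colour Affymetrix arrays came from 3 cultures given resveratrol, a polyphenol of grapes and other plants, and from 3 cultures of the same line labelled as control. No genotype, dose, length of treatment, vehicle or state of differentiation is given in the labels. The values are intensities on a linear scale, and the number of arrays limits their precision. No label says whether the cultures of a group were grown separately, so p-values measure only the spread between these arrays.

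Semaphorins are secreted or membrane-bound ligands that were first known for turning growing axons away, and that also act on blood vessels, immune cells and bone. Most bind plexins directly, while most secreted class 3 semaphorins need a neuropilin as co-receptor, and the plexin then switches off small GTPases of the Ras family and loosens the cell's grip on its matrix. Netrins bind Dcc, neogenin and Unc5 receptors, and Slits bind Robo receptors. In mouse fat, class 3 semaphorins, netrin 1 and Slits have been linked to nerve supply, to immune cells held in the tissue and to heat production.

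The sequences just before the start sites are shown for 3 semaphorin genes that were lower and for the plexin gene that was higher, since these are the members on which the results turn. Each is the 250 bases before the RefSeq transcript start, 5′ to 3′ on the strand of the gene, in build GRCm38.p6. Sema3g lies at chr14:31217623-31217872 (+ strand), Sema4g at chr19:44989094-44989343 (+), Sema6d at chr2:124089719-124089968 (+, the more upstream of 2 listed starts) and Plxnb2 at chr15:89180789-89181038 (- strand, the more upstream of 2). Capitals mark ACGTG, the core of the hypoxia response element and of many E-boxes, AGGTCA, the hexamer that many nuclear receptors recognise, and GGGCGG, the GC box, each on either strand.
Sema3g: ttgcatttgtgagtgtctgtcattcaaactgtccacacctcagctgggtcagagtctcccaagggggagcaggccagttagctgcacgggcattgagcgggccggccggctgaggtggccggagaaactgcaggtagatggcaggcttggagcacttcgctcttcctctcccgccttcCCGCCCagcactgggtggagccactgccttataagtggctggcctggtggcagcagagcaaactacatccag
Sema4g: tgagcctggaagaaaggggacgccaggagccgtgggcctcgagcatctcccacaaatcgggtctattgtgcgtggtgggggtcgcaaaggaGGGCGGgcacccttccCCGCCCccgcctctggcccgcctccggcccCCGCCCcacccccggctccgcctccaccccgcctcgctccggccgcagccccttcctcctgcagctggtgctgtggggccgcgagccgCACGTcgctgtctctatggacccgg
Sema6d: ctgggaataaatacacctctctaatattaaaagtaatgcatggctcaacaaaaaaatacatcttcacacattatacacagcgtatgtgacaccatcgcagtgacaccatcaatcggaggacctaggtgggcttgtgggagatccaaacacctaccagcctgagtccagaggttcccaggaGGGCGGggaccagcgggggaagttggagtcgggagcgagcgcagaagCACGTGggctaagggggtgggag
Plxnb2: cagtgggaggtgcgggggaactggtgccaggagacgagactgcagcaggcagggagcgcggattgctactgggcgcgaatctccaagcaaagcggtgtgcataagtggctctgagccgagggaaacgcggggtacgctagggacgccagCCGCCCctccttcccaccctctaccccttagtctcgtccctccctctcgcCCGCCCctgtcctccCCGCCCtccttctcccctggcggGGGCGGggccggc
The window of Sema3g held 1 GC box and no match to ACGTG or AGGTCA. That of Sema4g held 3 GC boxes and 1 ACGTG, that of Sema6d held 1 GC box and a CACGTG, which matches ACGTG on both strands, and that of Plxnb2 held 4 GC boxes. At the other listed start, not shown, the window of Sema6d held no match to any of these motifs. The other window of Plxnb2 held 1 AGGTCA and 3 GC boxes. RefSeq windows were at hand for 40 of the 48 genes, 53 windows in all. Of these, 15.1% held ACGTG, 18.9% held AGGTCA and 66% held the GC box, against 16.6%, 14% and 32.7% of all 32851 windows in the table. These matches describe letters only.

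Of the 48 genes, 37 had a brightest probe set among the upper 60% by mean log2 signal and were tested. In resveratrol cells 4 of them were called lower, all semaphorins, 1 was called higher, a plexin, and 32 did not pass the test. The 4 hold Sema3g, whose fall was known when the family was chosen, and Sema4a, which passed the filter on dim signals through its control arrays, so nothing is read from this count. A gene was called at an adjusted p under 0.05 in limma, fitted across all probe sets that passed the filter with Benjamini-Hochberg adjustment. The called members are 13.5% of those tested, where 10.5% of all 12630 genes tested were called, 5.21% lower and 5.32% higher. The median log2 change was -0.03 over the tested members and 0.02 over all genes tested. The absolute change was under 0.25 in 25 of the 37 members, or 67.6%, and in 72.1% of all genes. The arrays of the groups did not overlap for 7 of the 37 members, against 30.2% of all genes tested. Counted by probe set, 62 of the 109 were tested, 4 fell and 2 rose, where 8.17% of all tested probe sets were called, 4.22% lower and 3.95% higher. The arrays did not overlap for 11 of the 62, against 26.4% of all tested probe sets. The count of called genes, 5, was 3 without control replicate 2, where Sema4a and Plxnb2 no longer passed.

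**Figure D1:**
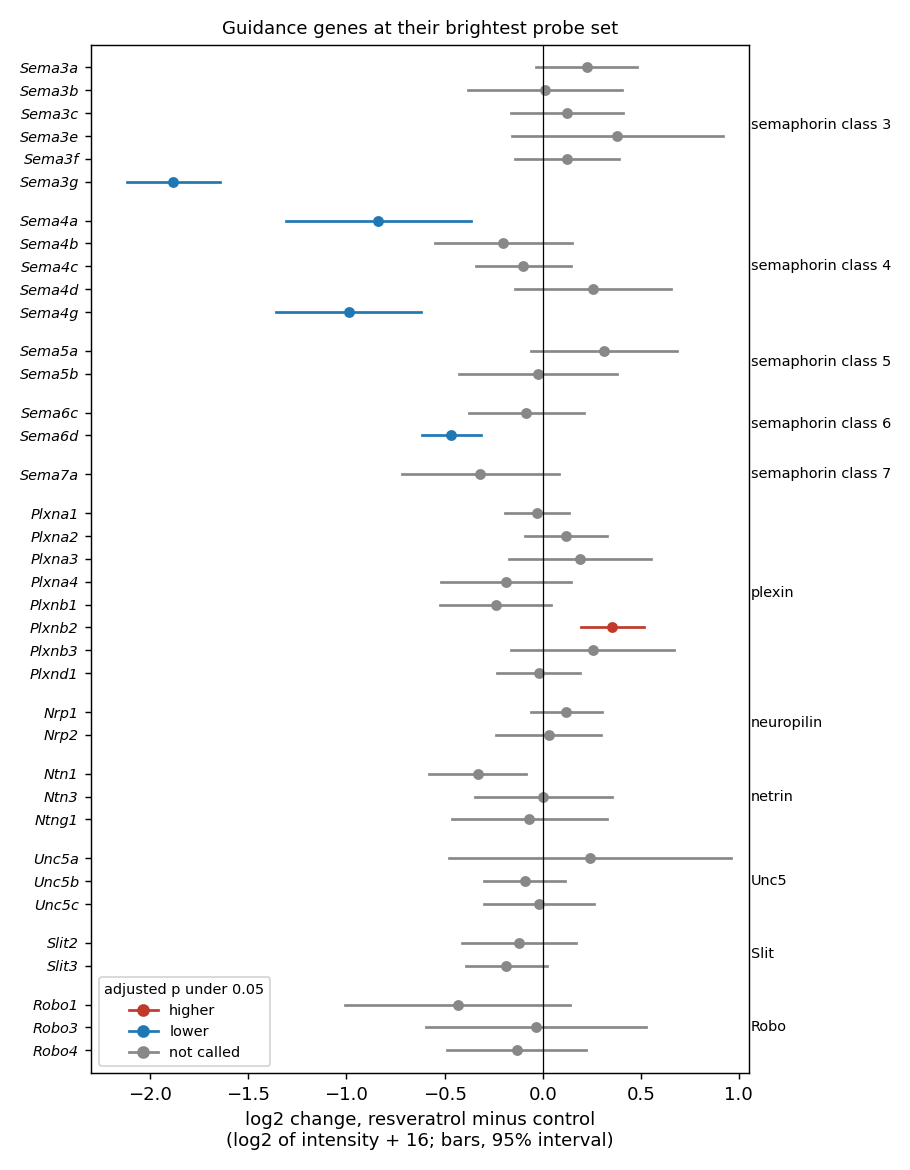
Log2 change, resveratrol minus control, of the 37 tested guidance genes at their brightest probe set (x axis, on the log2 of intensity plus 16), grouped by family, with 95% intervals from limma. Sema3g, Sema4g, Sema4a and Sema6d lie below 0 and Plxnb2 above it, and the grey intervals belong to the 32 genes that did not pass. The intervals of Sema3g, Sema3e, Sema4a and Robo1 are drawn as descriptions only.

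Class 3 semaphorins are secreted. Sema3g, which signals through neuropilin 2 with a class A plexin, had intensities of 125, 154 and 144 on the resveratrol arrays, against 626, 490.3 and 575 on the control arrays. All 3 resveratrol values lay far under the lowest control value. The means were 141 ± 15 in resveratrol cells and 564 ± 68.4 in control cells (SD, n = 3 each), a log2 change of -1.88 ± 0.11 (SE). All log2 changes here are resveratrol minus control at the brightest probe set, on log2 of intensity plus 16. Sema3g has 1 probe set, so no second one checks this value.

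Of the 6 class 3 genes tested, Sema3g fell, and the remaining 5 had changes above 0, none of which passed. Sema3e, a ligand that can bind plexin D1 without a neuropilin, had the largest difference among them, with 31.6, 30.7 and 17.3 on the resveratrol arrays and 14.1, 9.0 and 28.6 on the control arrays. These groups overlap, with a log2 difference of 0.38 ± 0.24. Sema3e passed the filter on dim signals through its resveratrol arrays, so this is a description, with no p-value. Sema3a, the ligand that collapses axon growth cones, had 0.23 ± 0.12 (adjusted p = 0.302 in limma). Its second probe set had -0.19 ± 0.11 with groups apart (adjusted p = 0.33 in limma), and a dimmer one had -0.13. Sema3c and Sema3f, ligands of neuropilins, both had 0.13 at their brightest probe sets, with adjusted p = 0.65 and 0.623, and Sema3b had 0.01. A dimmer probe set of Sema3f had 227, 190.2 and 218 on the resveratrol arrays and 167, 152 and 178 on the control arrays. These groups lie apart, but the difference of 0.32 ± 0.10 had an adjusted p of 0.0795 in limma, while a dimmer probe set of Sema3c had -0.14. Sema3d was too dim to be tested, between 1.1 and 8.0 on all 6 arrays.

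Class 4 semaphorins are bound to the membrane. Sema4g, whose known receptor in the mouse brain is plexin B2, had intensities of 73.9, 48.2 and 48.0 on the resveratrol arrays and 103, 136 and 143 on the control arrays. The highest resveratrol value, from replicate 1, stayed under the lowest control value. Sema4g fell to 56.7 ± 14.9 in resveratrol cells, against 128 ± 21.6 in control cells (SD, n = 3 each), with a log2 change of -0.99 ± 0.17 (SE) and an adjusted p of 0.00462 in limma. No second probe set checks this value, since Sema4g has 1.

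Sema4a, a ligand of plexins of the B and D classes that also acts on T cells, was lower at signals near the dim end of the array. Its tested probe set had 19.0, 9.3 and 10 on the resveratrol arrays and 24.6, 44.8 and 37.2 on the control arrays. The groups did not overlap, and the log2 change was -0.84 ± 0.21 (SE). It passed the filter on dim signals through its control arrays, so this is a description, with no p-value. A second probe set of Sema4a, too dim to be tested, had 9.1, 7.1 and 5.0 on the resveratrol arrays and 21.4, 22.8 and 27.1 on the control arrays. The value depends on the offset of 16 added before the logarithm: the change was -1.43 with an offset of 1 and -0.37 with one of 64. The call was also lost in 4 of the 6 fits that each left out 1 array.

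The other class 4 genes did not pass. Sema4d, the ligand of plexin B1 that is best known from immune cells and bone, had the largest uncalled change of the class. Its intensities were 53.5, 40.4 and 41.0 on the resveratrol arrays and 32.9, 26.8 and 46.4 on the control arrays, with a difference of 0.26 ± 0.18 and adjusted p = 0.469 in limma. The highest control value lies above 2 of the resveratrol values. Sema4b and Sema4c, a ligand of plexin B2, had -0.20 and -0.10, and Sema4f was too dim to be tested.

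**Figure D2:**
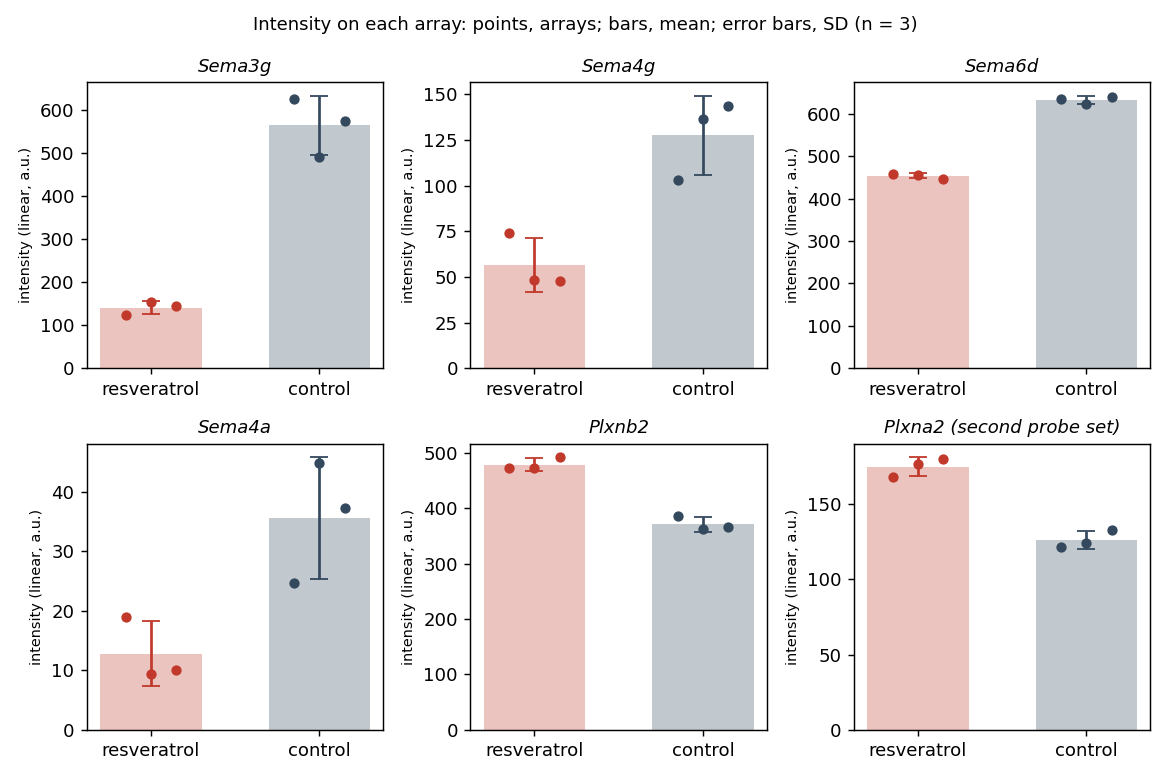
Intensity on each array (y axis, linear scale) for the 5 called genes at their brightest probe set and for the probe set of Plxna2 that was called. Points are arrays, bars are means and error bars are SD over 3 arrays. In each panel the resveratrol points and the control points do not overlap, and for Sema3g they run from 125 to 154 against 490.3 to 626.

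Class 6 semaphorins span the membrane and bind class A plexins. Sema6d, a ligand of plexin A1, had a small and even fall, with 457, 456 and 447 on the resveratrol arrays and 635, 622 and 640.0 on the control arrays. Both groups were tight and lay well apart. The means were 453 ± 5.80 in resveratrol cells and 632 ± 9.41 in control cells (SD, n = 3 each), a log2 change of -0.47 ± 0.07 (SE) with an adjusted p of 0.00211 in limma. Its other tested probe sets gave -0.32 (adjusted p = 0.273) and -0.26 (adjusted p = 0.517), so they point the same way but did not pass. The brighter of these had 140, 92.3 and 160.1 on the resveratrol arrays and 168, 155 and 168 on the control arrays, where groups overlap.

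Sema6c had 263, 231 and 275 on the resveratrol arrays and 218, 275 and 333 on the control arrays, a log2 difference of -0.08 ± 0.13 with adjusted p = 0.79 in limma. The control arrays alone span the resveratrol values. Sema6a and Sema6b were too dim to be tested.

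Classes 5 and 7 gave no call in limma, and none at their brightest probe sets at an unadjusted p under 0.05. Over all 27022 tested probe sets, 5857 had an unadjusted p under 0.05 in limma. Sema5a, a membrane protein with thrombospondin repeats, had 149, 131 and 150 on the resveratrol arrays and 79.3, 120.3 and 145 on the control arrays. The difference of 0.31 ± 0.17 (adjusted p = 0.323) is within the spread among the controls, and its 2 other tested probe sets had 0.09 and 0.13. Sema5b had -0.02. Sema7a, which is anchored to the membrane by a lipid and signals through integrins and plexin C1, had 39.4, 46.4 and 40.3 on the resveratrol arrays and 75.9, 55.9 and 41.1 on the control arrays. The groups overlap at control replicate 3, and the difference was -0.32 ± 0.18 (adjusted p = 0.352).

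Plexins carry the intracellular domain that switches off Ras-family GTPases. Of 9 plexin genes 8 were tested and 1 was called, near the 10.5% of all genes. Plxnb2, a receptor of Sema4c, Sema4d and Sema4g, had intensities of 472, 473 and 492 on the resveratrol arrays and 387, 362 and 365 on the control arrays. The lowest resveratrol value lies above the highest control value. Plxnb2 rose to 479 ± 11.3 in resveratrol cells, against 371 ± 13.4 in control cells (SD, n = 3 each), a log2 change of 0.35 ± 0.07 (SE) with an adjusted p of 0.0132 in limma. It did not pass without control replicate 2 (0.34, adjusted p = 0.0609) or without an intensity trend in the variance model (adjusted p = 0.0743). Plxnb2 also has 1 probe set.

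The probe sets of Plxna2, a co-receptor partner of neuropilins for class 3 semaphorins, differed in their call. The brightest had 214, 194 and 198 on the resveratrol arrays and 181, 202 and 172 on the control arrays, a difference of 0.12 ± 0.10 with adjusted p = 0.528 in limma. The second brightest had 168, 177 and 180.4 on the resveratrol arrays and 121, 124 and 133 on the control arrays, and it rose by 0.43 ± 0.09 with adjusted p = 0.0196. Its groups lie apart, while those of the brightest overlap. The 2 dimmer probe sets had 0.20 and 0.15 and did not pass. The call of the second probe set was lost without control replicate 2 and without each of the 3 resveratrol replicates, with adjusted p between 0.0514 and 0.0737 in these fits.

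The other plexins stayed within the spread of the arrays. Plxna1, the receptor of Sema6d, had 561, 495 and 519 on the resveratrol arrays and 532, 535 and 537 on the control arrays, with -0.03 ± 0.07. Its 95% interval ran from -0.19 to 0.14. Plxnd1, the receptor of Sema3e on blood vessels, had -0.02, with an interval from -0.23 to 0.19. Plxnb3 had 47.3, 41.8 and 25.9 on the resveratrol arrays and 31.1, 31.1 and 24.7 on the control arrays, the largest uncalled change among plexins, with 0.25 ± 0.19 and adjusted p = 0.498 in limma. Plxna3, Plxna4 and Plxnb1 had 0.19, -0.19 and -0.24. The 6 probe sets of Plxnc1 were all too dim to be tested.

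The neuropilins, the binding subunit of the receptor for class 3 semaphorins and co-receptors of vascular endothelial growth factors, gave no call in limma at any tested probe set, and none at their brightest at an unadjusted p under 0.05. Nrp1 had 784, 722 and 859 on the resveratrol arrays and 692, 710 and 766 on the control arrays, so the groups overlap. Its difference was 0.12 ± 0.08 with adjusted p = 0.453, and its 4 probe sets ran from -0.01 to 0.20. The second brightest had 717, 702 and 762 on the resveratrol arrays and 621, 678 and 590.4 on the control arrays. There the groups lie apart, with 0.20 ± 0.08, an unadjusted p of 0.0232 and an adjusted p of 0.145 in limma. Nrp2, the co-receptor of Sema3g, had 217, 162 and 220.2 on the resveratrol arrays and 195, 177 and 210 on the control arrays. Its difference was 0.03 ± 0.12, with a 95% interval from -0.24 to 0.30. The other tested probe sets of Nrp2 had -0.15 and 0.00.

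**Figure D3:**
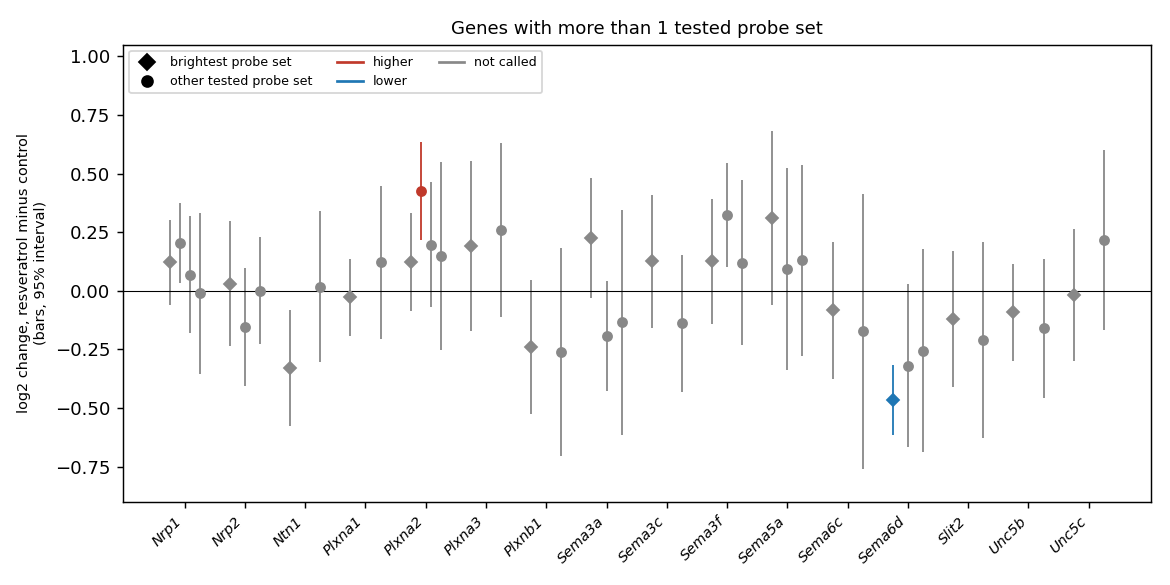
Log2 change, resveratrol minus control (y axis), of every tested probe set of the 16 guidance genes that have more than 1, with 95% intervals. Diamonds are each gene's brightest probe set. Only 1 probe set of Sema6d and 1 of Plxna2 passed, and in 7 of the 16 genes the probe sets take opposite signs around 0.

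Netrins, secreted relatives of laminin, gave no call in limma. Of the 3 tested, 1 had an unadjusted p under 0.05, as did 5857 of all 27022 tested probe sets. That netrin was Ntn1, which guides axons and holds macrophages in fat tissue in mice. Ntn1 had 127, 116 and 137 on the resveratrol arrays and 183, 145 and 163 on the control arrays. The groups lie apart, but the difference of -0.33 ± 0.11 had an adjusted p of 0.103, and the dimmer probe set of the gene had 0.02. Ntn3 and Ntng1, a netrin-like protein anchored to the membrane, had 0.00 and -0.07. Ntn4, Ntn5 and Ntng2 were too dim to be tested.

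The Unc5 receptors, which turn the netrin signal into repulsion, gave no call in limma and none at an unadjusted p under 0.05. Unc5a had 53.4, 36.8 and 18.2 on the resveratrol arrays and 35.6, 9.1 and 42.7 on the control arrays, a scatter over which the difference of 0.24 ± 0.33 (adjusted p = 0.746) says little. Unc5b, the form best known from blood vessels, had 171, 172 and 194 on the resveratrol arrays and 194, 181 and 201 on the control arrays. Its difference was -0.09, with a 95% interval from -0.30 to 0.11. Unc5c had -0.02, and Unc5d was too dim to be tested.

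Slits and Robos gave no call in limma either, and none at an unadjusted p under 0.05. Slit3, a secreted protein that in mice has been tied to the nerve supply of fat, had 163, 162 and 169 on the resveratrol arrays and 206, 188 and 176 on the control arrays. These groups lie apart, and the difference was -0.19 ± 0.09 with adjusted p = 0.285. Slit2, a fragment of which raises heat production in mouse fat cells, had 264, 245 and 289 on the resveratrol arrays and 247, 268 and 369 on the control arrays, and -0.12 ± 0.13. Robo1, a receptor of Slits, had 17.2, 6.7 and 26.3 on the resveratrol arrays and 37.9, 28.7 and 16.6 on the control arrays. At these dim signals its difference was -0.43 ± 0.26, and the groups overlap. Robo1 passed the filter through its control arrays, so this is a description, with no p-value. Robo3 and Robo4, the form of blood vessels, had -0.03 and -0.13, and Slit1 and Robo2 were too dim to be tested.

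The ligands that fell can be set beside the receptors they are known to bind. Sema4g changed by -0.99 and its receptor gene Plxnb2 by 0.35, while Sema4c and Sema4d, also ligands of plexin B2, had -0.10 and 0.26. Sema6d changed by -0.47, and Plxna1 had -0.03. Sema3g changed by -1.88, and Nrp2 had 0.03, with class A plexin genes from -0.19 (Plxna4) to 0.19 (Plxna3), all at their brightest probe sets. Dimmer tested probe sets of class A plexin genes ran from 0.12 (Plxna1) to 0.43 (Plxna2, the one called). Sema4a changed by -0.84, and plexin genes of its classes, B and D, ran from -0.24 (Plxnb1) to 0.35 (Plxnb2). By role, 4 of 16 semaphorins tested were called lower and 1 of 16 receptor genes was called higher. Over all genes tested, 5.21% were lower and 5.32% higher. The 4 hold Sema3g, whose fall was known when the family was chosen, and Sema4a, which passed the filter through its control arrays. Nothing is read from this count. Of 5 netrins and Slits tested, limma called 0, with 1 at an unadjusted p under 0.05, a level reached by 5857 of all 27022 tested probe sets.

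**Figure D4:**
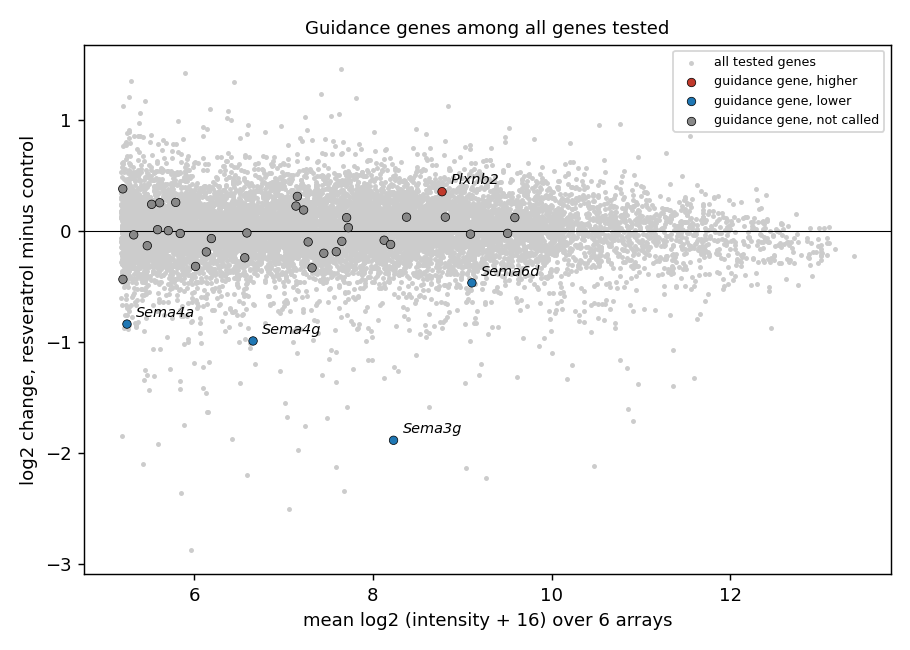
Log2 change, resveratrol minus control (y axis), against mean log2 of intensity plus 16 over the 6 arrays (x axis) for all 12630 tested genes (light grey) and the 37 guidance genes (circles). Most circles lie within the grey band around 0, Sema3g at -1.88 lies well under it, and Sema4a sits at the dim edge.

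Co-receptors, other ligands and intracellular partners of these receptors were listed by role, 62 genes in all, of which 60 had a probe set and 57 were tested. Of these 1 rose and 2 fell, or 5.26%, under the 10.5% of all genes. Limk1, a kinase that acts on cofilin and actin downstream of class 3 semaphorins, had 150.3, 163 and 130 on the resveratrol arrays and 299, 252 and 261 on the control arrays. It fell by 0.81 on the log2 scale (SE 0.11, adjusted p = 0.00106 in limma), with groups well apart. Vegfc, a growth factor of lymphatic vessels that binds neuropilin 2, had 283, 259 and 262 on the resveratrol arrays and 148, 156 and 177 on the control arrays. It rose by 0.69 ± 0.09 (adjusted p = 0.00131 in limma). Dpysl3, a member of the family of collapsin response mediators, fell by 0.51 on the log2 scale (SE 0.13, adjusted p = 0.0305 in limma), to 247 ± 5.50 in resveratrol cells, against 364 ± 77.6 in control cells (SD, n = 3 each). That call was lost in 5 of the 6 fits that each left out 1 array, and the mean of its probe sets gave -0.26. Next in order of p came Met, a receptor kinase that couples to plexin B1, with 0.27, and Vegfa, a ligand of neuropilin 1, with -0.39, both at adjusted p = 0.0523. Fes, a kinase that binds plexin A1, had -0.85, and its groups overlap. Fes passed the filter on dim signals through its control arrays, so its value is a description, with no p-value. Gpc1, a glypican that binds Slits, had 0.43 (adjusted p = 0.0664 in limma).

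Guidance genes are best known from nerve, vessel and immune cells, so markers of those cells were read on the same arrays. Of 8 endothelial markers 1 was tested and not called, with a summed intensity of 51.2 to 82.9 on the resveratrol arrays and 61.8 to 80.7 on the control arrays, and Pecam1, Vwf and Tie1 stayed under 11. Of 8 macrophage markers 6 were tested and 1 rose, Cd14 by 0.47 ± 0.12 (adjusted p = 0.0365 in limma), a call lost in 4 of the 6 fits that each left out 1 array. The remaining 5 tested ran from -0.19 (Fcgr1) to 0.21 (Cd68). The list's sum was 358 to 408 on the resveratrol arrays and 275 to 346 on the control arrays, and Ptprc, too dim to be tested, had 2.6 to 9.3 on the resveratrol arrays and 10.3 to 10.8 on the control arrays. Of 8 neuron markers 3 were tested and 1 fell, Snap25, a vesicle fusion protein, at 59.4 ± 4.03 in resveratrol cells and 107 ± 10.8 in control cells (SD, n = 3 each, adjusted p = 0.00638 in limma), while Tubb3 stayed under 3. Rbfox3, a neuronal splicing factor, and Syt1 had 0.46 (adjusted p = 0.212) and 0.07, and the list's sum was 170 to 193 on the resveratrol arrays and 182 to 223 on the control arrays. Of 4 Schwann cell markers with a probe set 2 were tested and 1 fell, S100b, a protein that fat cells also make, by 0.70 on the log2 scale (adjusted p = 0.0112 in limma). Sox10 had -0.16, and the list's sum was 119 to 157 on the resveratrol arrays and 165 to 204 on the control arrays. Of all 12630 genes tested, 5.21% were called lower and 5.32% higher. The part of these markers in the values of the guidance genes was not tested.

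The cells carried the signals of fat cells. Of 7 adipocyte markers all were tested, 2 fell and none rose, with changes between -0.57 and -0.10. Of all 12630 genes tested, 5.21% were called lower and 5.32% higher. Cidec, a lipid droplet protein, fell by 0.57 and Retn, which encodes resistin, by 0.54 on the log2 scale, with adjusted p = 0.0078 and 0.0255 in limma. The Retn call was lost without resveratrol replicate 2 or 3 and without control replicate 1 or 2. Adjusted p lay between 0.0805 and 0.104 in these limma fits. Without an intensity trend in the variance model, Cidec and Retn did not pass (adjusted p = 0.0544 and 0.095 in limma). Pparg, a regulator of fat cells, had -0.26 with groups apart (adjusted p = 0.061 in limma). The remaining adipocyte markers ran from -0.31 (Adipoq) to -0.10 (Cebpa), with overlapping groups. The list's sum was 35286 to 42979 on the resveratrol arrays and 36867.5 to 54831 on the control arrays. Of 6 preadipocyte and fibroblast markers tested 1 rose, Thy1, by 0.40 (adjusted p = 0.0078 in limma). It did not pass without an intensity trend (adjusted p = 0.0649 in limma). Col1a1, a collagen chain, had -0.32 (adjusted p = 0.0757) with groups apart, and the other 4 ran from -0.07 (Pdgfra) to 0.18 (Pdgfrb). The list's sum was 17549 to 21198 on the resveratrol arrays and 18413 to 20999 on the control arrays. A bulk culture does not tell fewer cells of a type from less RNA per cell, and whether the fall of Sema3g, Sema4g or Sema6d goes with the number of fat cells was not tested.

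The arrays split by the signal of 18 hybridisation spike probe sets into a brighter set, resveratrol replicate 1 with control replicates 1 and 2, and a dimmer set, resveratrol replicates 2 and 3 with control replicate 3. With so few arrays in each, within-set values carry no test. Sema3g had -2.02 in the brighter and -1.84 in the dimmer set. Sema6d had -0.45 and -0.49 in the same order, and Plxnb2 had 0.32 and 0.39. Sema4g had -0.58 in the brighter and -1.31 in the dimmer set, and Sema4a had -0.50 and -1.05. Of the 32 members not called, 20 took opposite signs in the brighter and the dimmer set. The share of all genes that did so was not counted, so nothing is read from this number. The widest gaps were those of Unc5a (0.95 and -0.47), Sema3e (0.79 and -0.18), Plxna3 (0.62 and -0.31), Robo3 (0.35 and -0.48) and Sema4d (0.60 and -0.14).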

How the data were processed

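Gene expression was measured on 6 arrays, 3 from resveratrol-treated and 3 from control cultures. Per the labels' protocols, total RNA was taken with Trizol and biotin-labelled by the array maker's protocol. The authors deposited 1 linear intensity per probe set and array, and the summarising software was not given in the sources used here. The values of control replicate 1 carry more decimals than those of the other arrays. Whether that array was processed apart from the others is not stated. The values themselves show that every array has a mean of 150 once the lowest and the highest 2% are trimmed, which is what scaling by 1 factor per array leaves, and that the arrays were not made equal by quantiles.

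Deposited intensities were turned into log2(intensity + 16), which understates changes of dim probe sets. The 64 array control probe sets were left out. The upper 60% of probe sets by mean log2 value over the 6 arrays, 27022, were tested with limma 3.58.1 in R 4.3.3 (lmFit and a trended eBayes, 2-sided). P-values were adjusted over these by the Benjamini-Hochberg method, and the threshold was 0.05. A gene stands for its brightest probe set. The fit was tested on simulated data. All 48 symbols, from the platform annotation, matched RefSeq (GRCm38.p6) by Entrez number, and the upstream sequences are from RefSeq. Figures were drawn in Python 3.11.15 (matplotlib 3.10.9).

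Members, lists, motifs and the rule for named genes were chosen with earlier results of these data known. Values on every array are given for called members, for the largest uncalled change of each family and for genes whose probe sets differ in call. They are also given for others chosen after their values were seen: the neuropilins, Plxna1, Unc5b, Slit2 and a dimmer probe set of Sema3f. Partner genes are named where called, plus the 4 with the next smallest p. Markers are given as counts and sums, plus called ones, those near 0 and others at the ends of a list's range. Pparg and Adipoq are named after their values were seen. The alternatives changed the normalization (quantile), the offset (1 or 64), the filter (none, or the upper 40%), the variance model (no trend, robust, array weights, a block for the replicate number or for the spike split) and the probe sets behind a gene (their mean, or only those not flagged by suffix as possibly cross-hybridising), or left out 1 array.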

Additional observations from a re-analysis of the deposited data

How the results depend on the processing

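Sema4g and Sema6d kept their direction and passed in all 18 alternatives, with log2 changes of -1.17 to -0.67 and -0.48 to -0.35. The change of Sema3g, a description, ran from -1.99 to -1.61. Plxnb2 passed in 16 of 18. Sema4g and Plxnb2 have 1 probe set each, so averaging or dropping probe sets gave no second measurement of them. Sema4a, whose value is also a description, was called in 8 of 16, and had no value with the brightest 40% of probe sets or when probe sets flagged as possibly cross-hybridising were dropped. The number of member genes called, 5, was 3 without an intensity trend, and 3 to 5 when each array was left out in turn. That of member probe sets, 6, was 3 to 6 with an array left out, 3 without control replicate 2. The number of partner genes called, 3, was 5 with quantile normalization, an offset of 64, the robust variance model or the spike block, 6 with the brightest 40% or array weights, and 2 to 5 with an array left out. Over all probe sets, 2209 were called, 1396 without a filter, 861 without an intensity trend, and 1131 to 1952 with an array left out, the lowest without resveratrol replicate 2, then 1179 without control replicate 2 and 1232 without resveratrol replicate 1. The cause of these shifts was not tested.

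Same-numbered arrays of the groups share only a number: the correlations of their deviations were -0.06, -0.02 and 0.09. With the replicate number as a block, 1894 probe sets, 4 member genes (without Sema4a), 5 member probe sets and 4 partner genes were called.

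Changes near 0 that did not pass took the other sign in some fits. With array weights the log2 change was 0.013 for Robo3 and 0.0020 for Unc5c. With the spike block it was 0.011 for Unc5c, -0.0091 for Ntn3, 0.042 for Ntng1 and 0.114 for Sema5b. With a gene's probe sets averaged it was 0.099 for Unc5c, -0.041 for Nrp2, 0.046 for Plxna1, -0.034 for Sema3a and -0.0070 for Sema3c. With an array left out it was -0.293 to 0.163 for Robo3, -0.232 to 0.045 for Slit2, -0.137 to 0.515 for Unc5a, -0.087 to 0.032 for Unc5c, -0.048 to 0.082 for Ntn3, -0.249 to 0.040 for Ntng1, -0.041 to 0.164 for Nrp2, -0.074 to 0.012 for Plxna1, -0.084 to 0.071 for Plxnd1, -0.108 to 0.107 for Sema3b, -0.0064 to 0.244 for Sema3c, -0.164 to 0.073 for Sema5b and -0.231 to 0.058 for Sema6c. Signals near the dim end limit what can be seen for Robo1, Robo3, Sema3e, Unc5a and Sema4a, whose SE lies between 0.21 and 0.33.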

Other observations

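Among the 11 members too dim to be tested, the arrays of the groups did not overlap for Sema6a and Ntn5, which are named after their values were seen. Sema6a, a membrane semaphorin that binds class A plexins, had 9.6, 5.2 and 6.7 on the resveratrol arrays and 15.6, 28.8 and 14.4 on the control arrays. Ntn5 had 7.0, 5.6 and 6.6 on the resveratrol arrays and 15.4, 30.3 and 9.1 on the control arrays. Both lie at signals where the array gives little order, and no test was run on them. Among all tested genes 30.2% had groups apart. That share was not counted over all genes too dim to be tested, so nothing is read from these values.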
